A study of Mus musculus with 12 samples.

Results

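Mouse 4T1 cells carrying an edit aimed at Etv4 were compared between a collagen I gel and plastic in a single clone, clone 1, and its response was set against that of the control cells. The comparison rests on 4 of the 12 RNA-seq libraries of the series, chosen by their labels: 2 of clone 1 in collagen gel (3D) and 2 of clone 1 on plastic (2D). The 4T1 line is a mouse mammary carcinoma line used as a model of metastatic breast cancer. Clone 1 came from cells nucleofected with sgRNA against Etv4 and is 1 clone, so what is particular to Etv4 and what is particular to this clone cannot be told apart within it. The other groups used were clone 2, a second Etv4-targeted clone, and control cells, which were pools of clones that received control sgRNA; each was also grown in 3D and in 2D with 2 libraries per format. Collagen I was used at a lower concentration of 1.2 mg/ml or a higher one of 2.4 mg/ml, with no label telling which library had which, and the gels were digested with collagenase I at 300 U/ml before RNA was taken. The format, the enzyme step and the deposited count table changed at once between 3D and 2D, and what each of them contributes cannot be told apart. The difference of the responses, clone 1 minus control, sets side by side cells that were all taken through plastic and gel, though the collagen concentration may not have been the same for both.

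Etv4, with Etv1 and Etv5, makes up the PEA3 group of ETS transcription factors, which act downstream of receptor tyrosine kinases and ERK. Matrix metalloproteinase genes are among the genes for which these factors are known. In a collagen gel epithelial tumour cells meet fibrillar collagen through integrins, and they can open the gel with secreted and membrane-bound proteases. The set of genes that answers such a change of surroundings covers matrix adhesion, oxygen and glucose use, stress of the endoplasmic reticulum (ER) and growth factor signalling, and these are the groups described here.

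Libraries of clone 1 held 27642487 and 33210413 counts in 3D and 14418772 and 12277023 in 2D, and those of the control 27104578 and 28266688 in 3D and 13877312 and 14383470 in 2D. The labels do not say whether the replicates were separate cultures, so every p-value below measures only the spread between these libraries. Gm26917, a predicted gene, took 12.7 and 14.95% of the clone 1 counts in 3D and 1.86 and 1.88% in 2D. Of 11 epithelial markers, 10 were detected in clone 1 in both formats and Krt5 was at 0. Their summed level was 2858 to 2914 CPM (counts scaled to a common library total) in 3D and 3866 to 3960 CPM in 2D. The 8 leukocyte markers summed to 7.85 to 10.4 CPM in clone 1 in 3D and 1.66 to 3.91 CPM in 2D, with Itgam, Adgre1 and Lyz2 among those at 0 in both formats. The 8 fibroblast markers summed to 19.2 to 19.6 CPM in 3D and 6.03 to 7.49 CPM in 2D, with Pdgfrb, Lum and Col3a1 at 0 in both, and the 6 endothelial markers to 4.38 to 5.48 CPM in 3D and 9.02 to 10.3 CPM in 2D, with Vwf at 0 in both. In bulk RNA, fewer cells of a kind and less RNA per cell cannot be told apart.

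Etv4 (ENSMUSG00000017724.14, chr11:101769742-101785371 in mm10) was detected in every clone 1 library. It stood at 69.9 and 69.1 CPM in clone 1 in 3D and 49.8 and 49.2 CPM in 2D, against 94.7 and 99.4 CPM in control in 3D and 78.1 and 76 CPM in 2D. The gel libraries were the higher ones in both, and every clone 1 library lay below every control library. The log2 change with culture was 0.49 ± 0.07 in clone 1 (standard error, SE; adjusted p = 2.6e-07), and the difference from the control response was 0.16 ± 0.09 (adjusted p = 0.34, edgeR's quasi-likelihood test with Benjamini-Hochberg adjustment, as for every adjusted p here). A small insertion or deletion can leave the count of a gene as it was, so these values do not check the edit. Etv1 (chr12:38779380-38870484) stood at 119 and 114 CPM in clone 1 in 3D and 32.6 and 31.7 CPM in 2D, against 120 and 110 CPM in control in 3D and 23.7 and 21.3 CPM in 2D. In 3D the groups overlapped and in 2D the clone 1 libraries were higher, and the rise in clone 1 was smaller than in control (log2 difference -0.50 ± 0.11, adjusted p = 0.004). Etv5 (chr16:22381309-22439719) rose by 0.64 ± 0.08 in clone 1 (adjusted p = 5.9e-08), and its difference from the control response was 0.01 ± 0.11.

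The culture format moved most of the genes measured in clone 1, and in most of them the control moved the same way. Of 13763 genes tested, 10336 (75.1%) changed in clone 1 at an adjusted p of 0.05, 5473 (39.8%) upward and 4863 (35.3%) downward. At least 2-fold changes were seen in 4981 (36.2%), 3257 (23.7%) upward and 1724 (12.5%) downward. In control 10628 genes (77.2%) changed, 5735 (41.7%) upward and 4893 (35.6%) downward. Of the 9295 genes called in both, 9214 (99.13%) moved in 1 direction and 81 in opposite directions. Over the 13763 genes the log2 changes of clone 1 and control had a Pearson correlation of 0.888 and a Spearman correlation of 0.909, which describe these libraries; the clone 1 libraries are not shared with the control, but library preparation and gene length are. The responses differed in 966 genes (7.02%), with 492 (3.57%) higher and 474 (3.44%) lower in clone 1, where higher means a more positive log2 change. At least 2-fold differences were seen in 176 (1.28%), 96 (0.698%) higher and 80 (0.581%) lower. Unless said otherwise, each difference called below stayed called under every alternative run. The split depended on the scaling of the libraries: 50.9% of the calls were higher with the main scaling, 35.2% with total counts only and 65.2% without Gm26917 and Gm42418. The count fell to 543 or 538 without clone 1 3D replicate 1 or 2, and to 504 or 434 without control 3D replicate 1 or 2.

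**Figure D1:**
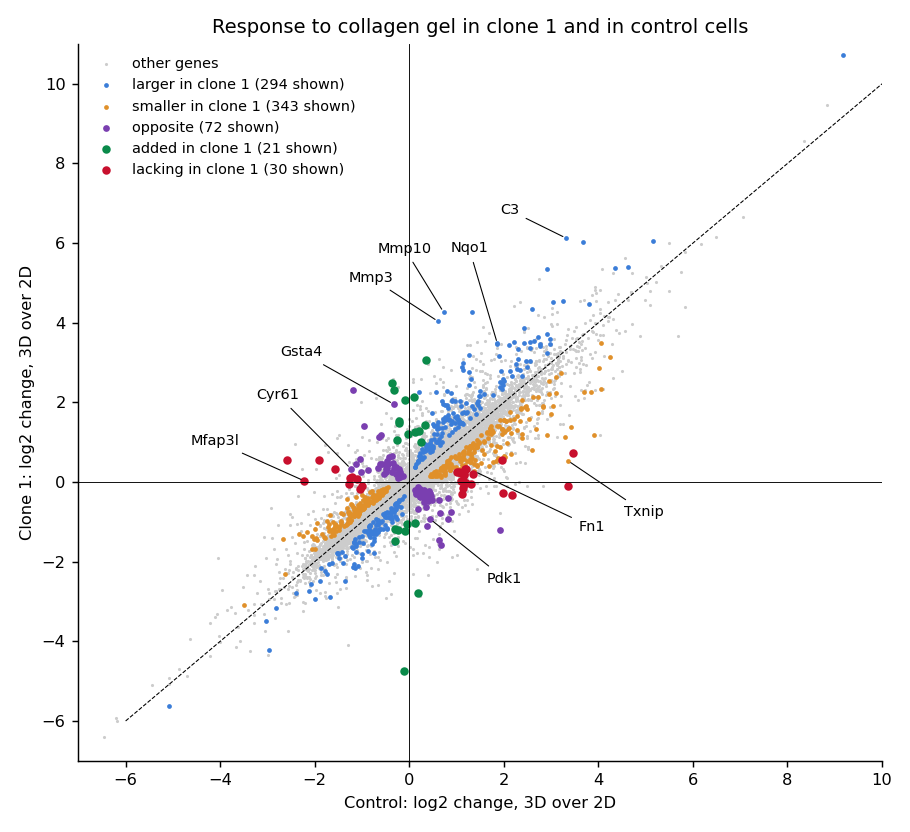
Each point is 1 gene, with the log2 change of 3D over 2D in clone 1 on the vertical axis and in control on the horizontal axis. Colours mark genes whose 2 responses differed; 11991 genes are drawn, 1772 with at most 3 counts in a group are left out and 1 lies outside the axes. Most genes lie along the dashed line of equal change, and Mmp3, Mmp10, C3 and Gsta4 lie above it while Txnip, Fn1 and Pdk1 lie below it.

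Most of the 966 genes fell into 5 kinds, and the rest met none of their rules. In 296 genes (2.15% of those tested) both lines moved in 1 direction and clone 1 moved more, and in 346 (2.51%) clone 1 moved less. In 80 genes (0.581%) the lines moved in opposite directions. In 29 genes (0.211%), 20 up and 9 down, clone 1 changed at least 2-fold and the control was not called. In 33 (0.24%), 23 up and 10 down in control, the control changed at least 2-fold and clone 1 was not called. These last counts depend on thresholds: with 1 library left out the added genes numbered 11 (without clone 1 3D replicate 2), 16 (without either control 3D replicate), 17 (without clone 1 3D replicate 1) and 51 (without control 2D replicate 1), and the lacking genes 19 and 17 without control 3D replicate 1 and 2.

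Among the genes added in clone 1 was Slco4a1 (chr2:180456245-180474867), which encodes an organic anion transporter. It stood at 9.11 and 9.6 CPM in clone 1 in 3D and 0.839 and 1.45 CPM in 2D, against 7.33 and 10.1 CPM in control in 3D and 5.94 and 7.69 CPM in 2D. In 3D the clone 1 and control libraries overlapped, and in 2D both clone 1 libraries were lower. Its log2 change was 3.05 ± 0.28 in clone 1 and 0.36 ± 0.19 in control (adjusted p = 0.095), with a difference of 2.70 ± 0.36 (adjusted p = 1.1e-05). Mal, a proteolipid of apical membrane traffic, stood at 20.2 and 20.6 CPM in clone 1 in 3D and 7.97 and 6.03 CPM in 2D, against 35.1 and 36.2 CPM in control in 3D and 49.5 and 33.1 CPM in 2D (difference 1.74 ± 0.21, adjusted p = 2.6e-06). All clone 1 libraries were below all control libraries for this gene, and within clone 1 the gel libraries were higher. Bbs9, a part of the ciliary BBSome, differed by 1.33 ± 0.19 (adjusted p = 2.7e-05), with 17.3 and 16.5 CPM in clone 1 in 3D and 7.34 and 8.84 CPM in 2D, against 13.3 and 12.2 CPM in control in 3D and 15.7 and 14.9 CPM in 2D. Here clone 1 was above control in the gel and below it on plastic. Mmp15 and Serpinb5 belong to the same kind and are given with the proteases.

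Among the genes lacking in clone 1, Gm2a (chr11:55098115-55113029), the activator protein of ganglioside breakdown in lysosomes, stood at 41.9 and 38.7 CPM in clone 1 in 3D and 45.1 and 44.9 CPM in 2D, against 30.7 and 32.7 CPM in control in 3D and 15.2 and 13.7 CPM in 2D. The clone 1 libraries were above the control libraries in both formats, and they differed most on plastic. The log2 change was -0.16 ± 0.09 in clone 1 (adjusted p = 0.11) and 1.14 ± 0.11 in control, a difference of -1.30 ± 0.14 (adjusted p = 6e-07). Rgs2, which speeds the shutoff of G proteins, stood at 7.48 and 6.83 CPM in clone 1 in 3D and 7.48 and 6.83 CPM in 2D, against 17.2 and 17.5 CPM in control in 3D and 9.23 and 6.34 CPM in 2D (difference -1.16 ± 0.23, adjusted p = 0.0017). Tmem71 differed by -0.98 ± 0.21 (adjusted p = 0.0038). Of genes that fell in control alone, Mfap3l (chr8:60632827-60676729) stood at 5.58 and 5.54 CPM in clone 1 in 3D and 5.59 and 5.3 CPM in 2D, against 2.12 and 2.08 CPM in control in 3D and 10.3 and 9.31 CPM in 2D. Its levels in clone 1 lay between those of the control in its 2 formats, and the difference was 2.25 ± 0.27 (adjusted p = 2.8e-06). Anxa8, a calcium-binding annexin, stood at 33.3 and 31 CPM in clone 1 in 3D and 41.2 and 24.3 CPM in 2D, against 3.61 and 3.4 CPM in control in 3D and 7.76 and 9.11 CPM in 2D. The plastic libraries of clone 1 were far apart from each other for this gene, and its culture change in clone 1 of -0.04 ± 0.15 (adjusted p = 0.83) has no settled sign.

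Early response genes held several of the largest rises in clone 1. Each gene of this paragraph was also called higher in 3D in control, and the rises of Bicdl2 (adjusted p = 0.00045) and Egr1 (adjusted p = 0.015) differed from those in control; the call for Egr1 was lost without control 2D replicate 1 or clone 1 2D replicate 2. Sptb (chr12:76580488-76710547), a beta spectrin of the membrane skeleton, stood at 18.6 and 20.6 CPM in clone 1 in 3D and at 0 in both 2D libraries, which makes it at least 175.5-fold higher in 3D over a floor of 3 counts for the group. Against the same floor Mroh2a was at least 165.1-fold higher, Egr3, an early growth response factor, at least 142.1-fold, Nnat, or neuronatin, at least 129.9-fold, and the hair keratin gene Krt87 at least 118.8-fold. Mmp13 (chr9:7272514-7283331), a collagenase, had 866 counts in clone 1 in 3D and 1 count in 2D, which put the 3D level at 404 times the 2D level (95% counting interval, 72.3 to 15970). Cfap157, Bicdl2 and Camk1g had ratios of 144 (49.1 to 699), 136 (37.3 to 1121) and 116 (39.4 to 562) in clone 1. These floors and intervals cover counting error only. Egr1, another early growth response factor, stood at 904 and 892 CPM in clone 1 in 3D and 0.629 and 0.402 CPM in 2D. Its log2 change was 10.73 (adjusted p = 4e-30). Fos and Fosb, subunits of the AP-1 transcription factor, rose by 9.46 and 8.58 on the log2 scale. Their differences from the control response were 0.62 ± 0.48 (adjusted p = 0.49) and 0.23 ± 0.38 (adjusted p = 0.8).

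The largest falls in clone 1 included Gadd45b, a stress-inducible gene, at 4.86 and 5.19 CPM in 3D and 112 and 95.4 CPM in 2D (log2 change -4.36 ± 0.10, adjusted p = 2.7e-23). Both gel libraries were far below both plastic libraries. S100a7a, of the psoriasin family, changed by -4.15 ± 0.18 on the log2 scale, Scn3a, a sodium channel gene, by -3.73 ± 0.20, Atp5k, a subunit of ATP synthase, by -3.63 ± 0.11, Moxd1 by -3.34 ± 0.16 and Col12a1, a fibril-associated collagen, by -3.03 ± 0.18. The adjusted p of their differences from control ran from 0.079 upward. Sorbs2, an adaptor of the actin cytoskeleton, fell further in clone 1 than in control: it stood at 16.4 and 15 CPM in clone 1 in 3D and 126 and 114 CPM in 2D, against 31.3 and 25 CPM in control in 3D and 105 and 119 CPM in 2D. The clone 1 gel libraries were the lowest, while the plastic libraries of both lines overlapped (difference -0.95 ± 0.13, adjusted p = 1.6e-05).

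The widest gaps between the responses are described next, beginning with genes that gained more in clone 1. Adgrg3, an adhesion G protein-coupled receptor, stood at 34 and 32.6 CPM in clone 1 in 3D and 1.89 and 1.53 CPM in 2D, against 124 and 122 CPM in control in 3D and 51.2 and 46.5 CPM in 2D. Clone 1 was lower in both formats and by more on plastic, so its log2 change was the larger one (difference 2.94 ± 0.18, adjusted p = 1.4e-11). C3 (chr17:57203970-57228136), the central complement component, stood at 46.7 and 42.8 CPM in clone 1 in 3D and 0.559 and 0.723 CPM in 2D, against 70.1 and 64.9 CPM in control in 3D and 7.13 and 6.41 CPM in 2D (difference 2.81 ± 0.28, adjusted p = 1.4e-07). It too was lower in clone 1 in each format. Siglec15, a sialic acid-binding lectin, stood at 24.3 and 30.4 CPM in clone 1 in 3D and 0.419 and 0.402 CPM in 2D, against 15.2 and 14.9 CPM in control in 3D and 1.26 and 1.08 CPM in 2D (difference 2.36 ± 0.51, adjusted p = 0.0038). For this gene clone 1 was above control in the gel and below it on plastic. Neurl3, a ubiquitin ligase gene, differed by 2.44 ± 0.43 (adjusted p = 0.0004).

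Txnip (chr3:96557957-96561883; 19.4% of its exon length overlaps another gene) had the most negative difference among the genes chosen by the rule that had more than 3 counts in every group. It encodes a thioredoxin-binding protein that limits glucose uptake. It stood at 25.3 and 23.9 CPM in clone 1 in 3D and 14.7 and 19.4 CPM in 2D, against 47.3 and 50.9 CPM in control in 3D and 4.89 and 4.72 CPM in 2D. Clone 1 was lower in the gel and higher on plastic, with a log2 change of 0.54 ± 0.11 in clone 1, 3.35 ± 0.13 in control and a difference of -2.81 ± 0.18 (adjusted p = 3.1e-11). Arrdc3, an arrestin-domain relative of Txnip, differed in the same direction by -1.13 ± 0.15 (adjusted p = 1.7e-05), with 90.5 and 88.9 CPM in clone 1 in 3D and 24.5 and 23.1 CPM in 2D, against 78 and 77 CPM in control in 3D and 10.5 and 8.3 CPM in 2D. Here clone 1 was higher in both formats. Pdcd4, an inhibitor of translation, rose in clone 1 but less than in control (difference -1.43 ± 0.27, adjusted p = 0.0012), as did Calcoco1, an autophagy adaptor (-1.73 ± 0.23, adjusted p = 1.4e-05), and Cnnm2, a gene of magnesium transport (-1.35 ± 0.31, adjusted p = 0.0067).

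Genes of hypoxia and glycolysis, targets of the hypoxia-inducible factors among them, were the list with the most members lower in the difference relative to its size among lists of at least 20 genes. Of 34 members, 14 rose and 16 fell with the gel in clone 1, and 21 rose and 9 fell in control; over all genes 39.8% rose and 35.3% fell in clone 1. The median log2 change was -0.257 in clone 1 and 0.343 in control, beside 0.0803 and 0.102 over all genes tested. With only genes without overlap, which leaves fewer members, 8 fell in clone 1 and its median was 0.036, so its sign is not settled. In the difference 20 of 34 were called, each lower in clone 1, beside 3.44% lower over all genes. The count was 14 to 22 over the alternatives that tested the same genes. The median difference was -0.451, beside 0.0027 over all genes. Pdk1 (chr2:71873224-71903858), the kinase that keeps pyruvate out of the mitochondrion, stood at 68.2 and 68.5 CPM in clone 1 in 3D and 135 and 126 CPM in 2D, against 67.9 and 72.8 CPM in control in 3D and 49.5 and 53.9 CPM in 2D. The gel libraries of both lines were close and the plastic libraries of clone 1 stood apart above all others. The log2 change was -0.93 ± 0.07 in clone 1 (adjusted p = 1e-12) and 0.44 ± 0.07 in control, a difference of -1.38 ± 0.10 (adjusted p = 1.8e-10).

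The promoters of 3 of these genes, from RefSeq on GRCm38.p6, are shown because they hold the core of the element that hypoxia-inducible factors are known to bind, spelled ACGTG and searched on both strands; capitals mark it or its reverse complement, and in Bnip3 matches on the 2 strands overlap. Windows of 300 bases around the start are given 5′ to 3′ on the gene's strand, for Bnip3 at chr7:138909457-138909756 (minus), P4ha1 at chr10:59323046-59323345 (plus) and Pgk1 at chrX:106186850-106187149 (plus).
Bnip3: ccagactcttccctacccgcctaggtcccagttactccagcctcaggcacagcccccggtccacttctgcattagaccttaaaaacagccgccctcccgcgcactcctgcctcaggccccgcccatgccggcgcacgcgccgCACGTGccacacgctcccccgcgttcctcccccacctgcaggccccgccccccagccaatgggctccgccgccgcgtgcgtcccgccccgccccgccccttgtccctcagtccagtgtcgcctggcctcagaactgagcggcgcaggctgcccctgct
P4ha1: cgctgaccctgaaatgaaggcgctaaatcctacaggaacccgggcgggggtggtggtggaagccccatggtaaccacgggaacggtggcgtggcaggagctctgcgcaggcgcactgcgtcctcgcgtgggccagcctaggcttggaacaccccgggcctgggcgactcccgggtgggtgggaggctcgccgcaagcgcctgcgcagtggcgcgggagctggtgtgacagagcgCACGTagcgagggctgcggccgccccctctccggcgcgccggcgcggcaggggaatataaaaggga
Pgk1: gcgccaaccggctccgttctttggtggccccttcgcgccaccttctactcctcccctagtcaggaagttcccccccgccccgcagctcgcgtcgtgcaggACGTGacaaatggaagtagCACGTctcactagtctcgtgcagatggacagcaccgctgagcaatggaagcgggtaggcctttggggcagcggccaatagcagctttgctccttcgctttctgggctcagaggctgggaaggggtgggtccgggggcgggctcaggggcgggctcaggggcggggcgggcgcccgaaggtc
Of the 20 genes lower in the difference, 18 had a promoter entry and 11 held the letters. The letters stood in 40.6% of their 32 promoters, beside 25.2% of the promoters of genes tested and 19.6% of all 32851 promoters. They also stood in 37.5% of the 8 promoters of ER chaperone genes called in the difference, which are described below. A longer form of the element was also searched. It stood in 0 of the 32 promoters, beside 0.804% of the promoters of genes tested. That form is rare, so its absence from so few promoters decides nothing. Each match is a description of the sequence only.

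Bnip3 (chr7:138890836-138909519; 22.3% of its exon length overlaps another gene), a mitophagy receptor, stood at 19.6 and 18.1 CPM in clone 1 in 3D and 42 and 38.9 CPM in 2D, against 32.1 and 32 CPM in control in 3D and 25 and 24.2 CPM in 2D. Clone 1 was lowest in the gel and highest on plastic (difference -1.49 ± 0.13, adjusted p = 1.1e-08). P4ha1, a subunit of the enzyme that hydroxylates collagen prolines, was also lower in clone 1 in the gel and higher on plastic, with 78.9 and 84.1 CPM in clone 1 in 3D and 122 and 139 CPM in 2D, against 122 and 119 CPM in control in 3D and 99.6 and 113 CPM in 2D (difference -0.86 ± 0.09, adjusted p = 6.6e-07). Pgk1, phosphoglycerate kinase, stood at 342 and 344 CPM in clone 1 in 3D and 881 and 828 CPM in 2D, against 338 and 371 CPM in control in 3D and 597 and 565 CPM in 2D. It fell with the gel in both lines and further in clone 1, whose plastic libraries were higher (difference -0.60 ± 0.08, adjusted p = 6e-06). Pfkl, the liver-type phosphofructokinase subunit, differed by -0.66 ± 0.08 (adjusted p = 1.5e-06). Aldoa, the aldolase of muscle and most tissues, differed by -0.66 ± 0.07 (adjusted p = 3.8e-07) and the enolase gene Eno1 by -0.55 ± 0.08 (adjusted p = 4.8e-05), and these 2 were chosen after their values were seen. Set against clone 2, which shares the clone 1 libraries with the comparison above, the difference was -0.96 ± 0.09 for Pdk1 (adjusted p = 2.4e-08), -0.78 ± 0.12 for Bnip3 (adjusted p = 3e-05) and -0.42 ± 0.09 for P4ha1 (adjusted p = 0.0011), but -0.04 ± 0.08 for Pgk1 (adjusted p = 0.79) and -0.12 ± 0.07 for Aldoa (adjusted p = 0.2). Over all genes 29.8% were called in that comparison, 18.9% higher and 10.8% lower.

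**Figure D2:**
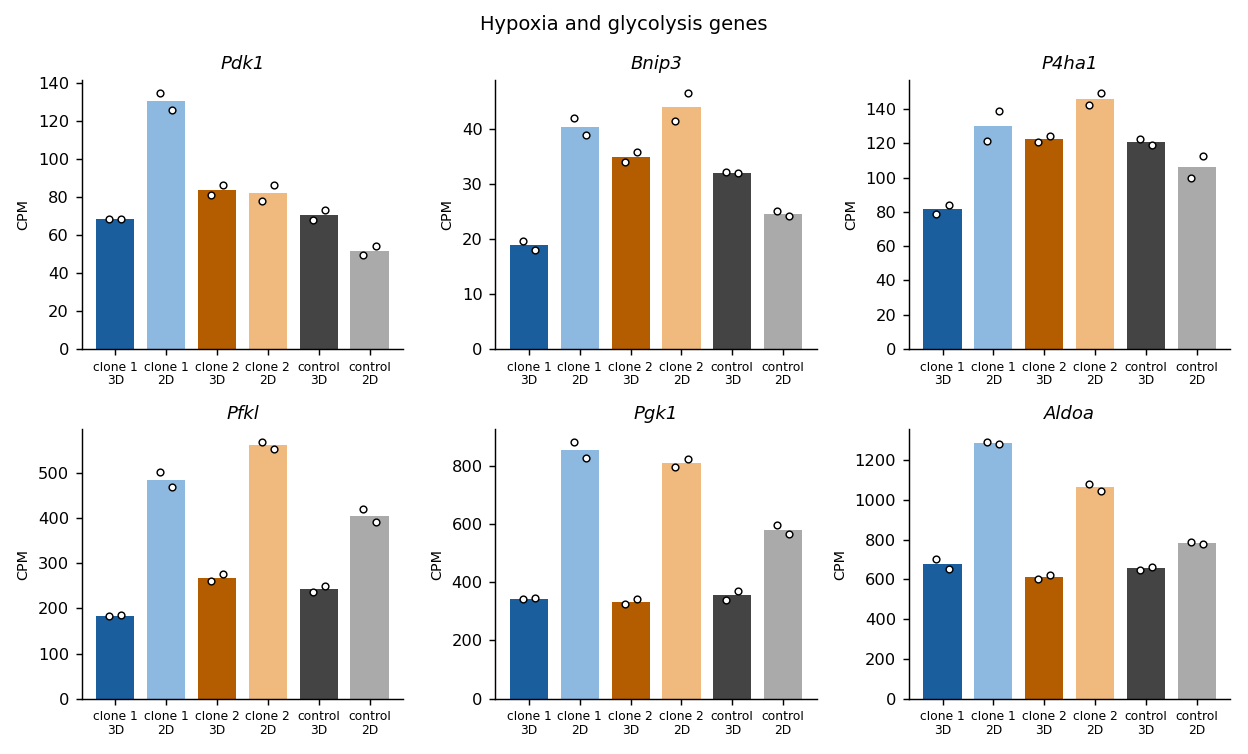
Levels of 6 hypoxia and glycolysis genes in CPM in each group. Bars are means of 2 libraries and points are the libraries. Pdk1 of clone 1 on plastic, at 135 and 126 CPM, lies above all other groups, while Pgk1 and Aldoa on plastic are also above control in clone 2.

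Among chaperones of the ER and genes of the unfolded protein response, fewer members fell in clone 1 than in control. Of 22 members, 8 rose and 10 fell in clone 1 (39.8% and 35.3% of all genes did), and 6 rose and 15 fell in control. In the difference 10 were called, each higher in clone 1, beside 3.57% higher over all genes. The count was 7 to 11 over the alternatives that tested the same genes. Hspa5 (chr2:34771970-34777547), the main ER Hsp70 known as BiP, stood at 1303 and 1398 CPM in clone 1 in 3D and 1646 and 1560 CPM in 2D, against 843 and 869 CPM in control in 3D and 1539 and 1512 CPM in 2D. The plastic libraries of both lines were close, and in the gel both clone 1 libraries were higher. The log2 change was -0.25 ± 0.05 in clone 1 and -0.83 ± 0.05 in control, a difference of 0.59 ± 0.08 (adjusted p = 7.4e-06). Calr (chr8:84841850-84846934), calreticulin, followed the same pattern, with 692 and 720 CPM in clone 1 in 3D and 886 and 891 CPM in 2D, against 422 and 435 CPM in control in 3D and 863 and 854 CPM in 2D (difference 0.67 ± 0.07, adjusted p = 2.6e-07).

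The promoters of 3 of these chaperones are shown because they hold the ER stress element known to bind ATF6 with NF-Y, spelled CCAAT, any 9 bases and CCACG, searched on both strands and marked by capitals. They are RefSeq sequences on GRCm38.p6, 5′ to 3′ on the gene's strand, for Hspa5 at chr2:34771840-34772139 (plus), Calr at chr8:84846882-84847181 (minus) and Hsp90b1 at chr10:86705395-86705694 (minus).
Hspa5: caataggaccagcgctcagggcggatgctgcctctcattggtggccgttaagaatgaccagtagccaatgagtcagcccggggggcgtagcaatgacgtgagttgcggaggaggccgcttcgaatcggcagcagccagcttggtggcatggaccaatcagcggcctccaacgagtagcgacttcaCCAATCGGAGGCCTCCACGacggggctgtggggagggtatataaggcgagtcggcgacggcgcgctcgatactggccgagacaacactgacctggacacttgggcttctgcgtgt
Calr: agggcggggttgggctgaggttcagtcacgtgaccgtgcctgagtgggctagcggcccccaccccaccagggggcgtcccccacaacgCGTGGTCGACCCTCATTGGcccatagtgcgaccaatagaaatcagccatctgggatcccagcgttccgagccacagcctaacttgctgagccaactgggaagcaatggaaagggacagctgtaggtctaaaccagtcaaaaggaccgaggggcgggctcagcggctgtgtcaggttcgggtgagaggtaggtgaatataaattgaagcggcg
Hsp90b1: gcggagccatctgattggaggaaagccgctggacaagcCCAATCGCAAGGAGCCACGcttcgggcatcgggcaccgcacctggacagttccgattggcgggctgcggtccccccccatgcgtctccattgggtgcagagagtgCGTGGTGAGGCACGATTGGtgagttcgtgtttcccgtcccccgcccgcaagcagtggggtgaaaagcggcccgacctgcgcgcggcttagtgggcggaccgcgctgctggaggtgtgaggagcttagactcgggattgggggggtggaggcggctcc
Of the 10 chaperone genes higher in the difference, 8 had a promoter entry and 5 of them held the element, which stood in 0.119% of all 32851 promoters and in 18 of 10142 genes tested with an entry. Hsp90b1, the ER Hsp90, stood at 773 and 778 CPM in clone 1 in 3D and 682 and 659 CPM in 2D, against 599 and 592 CPM in control in 3D and 670 and 693 CPM in 2D. It rose in clone 1 and fell in control (difference 0.40 ± 0.07, adjusted p = 0.00029), and it was chosen after its values were seen. Sdf2l1, an ER chaperone partner, was among the genes lacking a fall in clone 1, with 7.75 and 7.96 CPM in clone 1 in 3D and 8.39 and 6.03 CPM in 2D, against 6.49 and 6.13 CPM in control in 3D and 13.5 and 16.7 CPM in 2D (difference 1.37 ± 0.24, adjusted p = 0.00044). Against clone 2 the difference was 0.92 ± 0.08 for Hspa5 (adjusted p = 1.2e-09) and 1.09 ± 0.07 for Calr (adjusted p = 1.1e-11).

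The next list held Atf4, the gene of the factor of the integrated stress response, with its targets and amino acid genes. Over all genes 39.8% rose and 35.3% fell in clone 1. Of the list's 34 members 13 rose and 18 fell in clone 1, and 11 rose and 20 fell in control. In the difference 11 were called, each higher in clone 1, beside 3.57% higher over all genes. Of the omissions of 1 library, 5 cut that count past 1.5 times: it was 7 without clone 1 2D replicate 2, 6 without clone 1 3D replicate 1, clone 2 3D replicate 2 or control 3D replicate 1, and 5 without control 3D replicate 2. Chac1, which degrades glutathione, stood at 17.3 and 16.8 CPM in clone 1 in 3D and 3.28 and 3.78 CPM in 2D, against 6.31 and 7.02 CPM in control in 3D and 3.98 and 3.71 CPM in 2D (difference 1.48 ± 0.27, adjusted p = 0.00061). The plastic libraries overlapped and the clone 1 gel libraries were highest. Asns, asparagine synthetase, fell in both lines and less in clone 1 (difference 0.50 ± 0.09, adjusted p = 0.00082). Phgdh, the first enzyme of serine synthesis, changed by -1.84 ± 0.06 in clone 1, and its difference from control was 0.11 ± 0.08 (adjusted p = 0.46). Of 19 cytosolic heat shock genes 7 rose and 10 fell in clone 1, and Hsph1, an Hsp110 (chr5:149614287-149636376), rose further than in control, with 350 and 353 CPM in clone 1 in 3D and 95.1 and 90.5 CPM in 2D, against 162 and 155 CPM in control in 3D and 74.2 and 74.6 CPM in 2D (difference 0.83 ± 0.08, adjusted p = 6.7e-08).

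The list for NRF2, the factor of the antioxidant response, held its targets together with its own gene, Nfe2l2, and Keap1. Over all genes 39.8% rose and 35.3% fell in clone 1. Of the list's 21 members 14 rose and 5 fell in clone 1, beside 11 and 9 in control. In the difference 9 were higher and 1 was lower, beside 3.57% and 3.44% over all genes. The higher ones numbered at least 6 with any 1 library left out. The lower one was Keap1, which encodes the NRF2 inhibitor, and its call was lost without control 2D replicate 2, clone 1 2D replicate 2, clone 2 3D replicate 1 or any 1 of the 3D libraries of clone 1 and control. Nqo1 (chr8:107388225-107403206), a quinone reductase, stood at 156 and 150 CPM in clone 1 in 3D and 13.1 and 14.6 CPM in 2D, against 56.9 and 61.5 CPM in control in 3D and 20.2 and 12.4 CPM in 2D. On plastic the lines overlapped, and in the gel both clone 1 libraries were far higher (log2 change 3.47 ± 0.12 in clone 1 and 1.86 ± 0.12 in control, difference 1.60 ± 0.18, adjusted p = 6e-07). Gsta4 (chr9:78182774-78209349), a glutathione transferase, rose in clone 1 and fell in control: it stood at 95 and 82.7 CPM in clone 1 in 3D and 22.8 and 23 CPM in 2D, against 25.4 and 24.1 CPM in control in 3D and 33.1 and 29.2 CPM in 2D (difference 2.29 ± 0.14, adjusted p = 7e-12). Hmox1, heme oxygenase, chosen after its values were seen, stood at 48.1 and 48.6 CPM in clone 1 in 3D and 8.88 and 8.92 CPM in 2D, against 20.1 and 23.9 CPM in control in 3D and 9.65 and 8.63 CPM in 2D (difference 1.17 ± 0.18, adjusted p = 7.5e-05). Its plastic libraries overlapped. Against clone 2 the difference was 1.61 ± 0.18 for Nqo1 (adjusted p = 1.8e-07) and 2.12 ± 0.16 for Gsta4 (adjusted p = 4e-10).

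**Figure D3:**
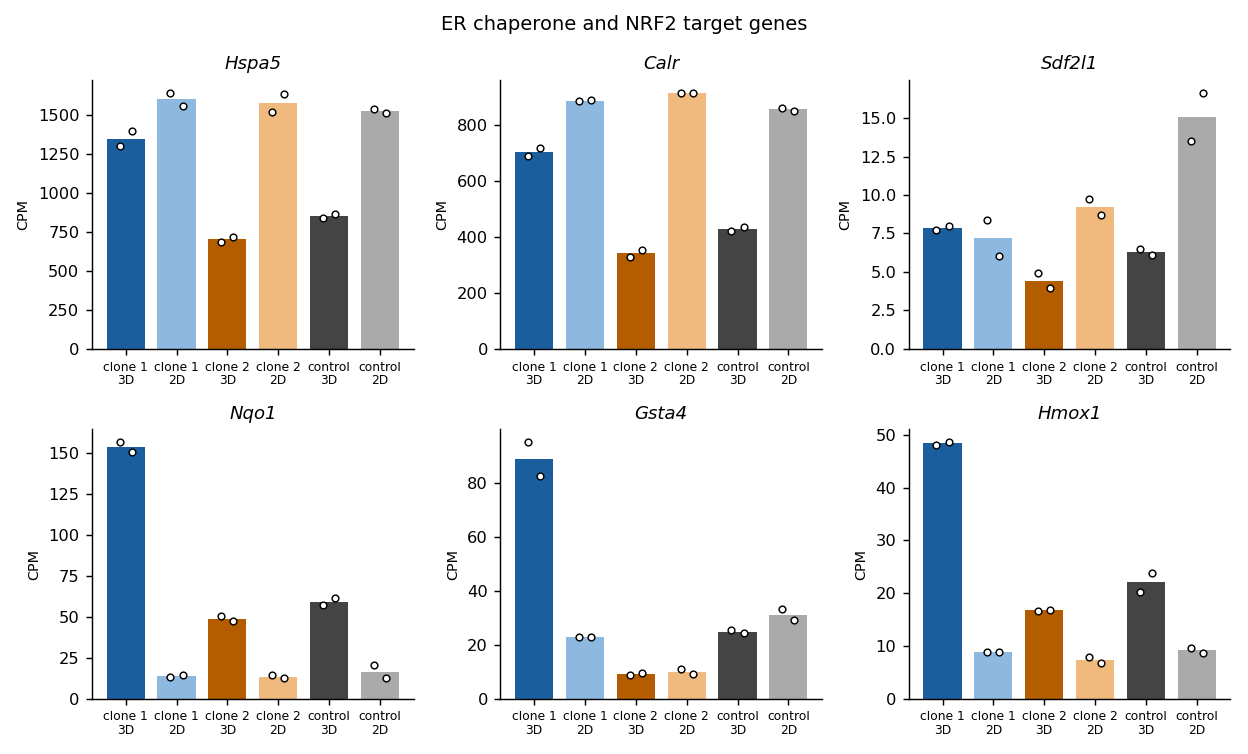
Levels of 3 ER chaperone genes (top) and 3 NRF2 target genes (bottom) in CPM in each group. Bars are means of 2 libraries and points are the libraries. In the gel Hspa5, Calr, Nqo1, Gsta4 and Hmox1 of clone 1 lie above clone 2 and control, with Nqo1 at 156 and 150 CPM in clone 1.

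Immediate early genes rose together with the gel. Of 27 members, 24 rose and 1 fell in clone 1 with a median log2 change of 3.70, and 25 rose and 2 fell in control with a median of 3.25. Over all genes 39.8% rose in clone 1. In the difference 8 were called, each higher in clone 1, beside 3.57% higher over all genes, and 5 were without clone 1 2D replicate 2 or control 2D replicate 1. Ier2, an early response gene, stood at 377 and 369 CPM in clone 1 in 3D and 8.39 and 9.64 CPM in 2D, against 307 and 328 CPM in control in 3D and 15.7 and 15.3 CPM in 2D (difference 1.02 ± 0.13, adjusted p = 3.6e-06). Clone 1 was higher in the gel and lower on plastic. Junb, an AP-1 subunit, stood at 333 and 340 CPM in clone 1 in 3D and 147 and 144 CPM in 2D, against 383 and 400 CPM in control in 3D and 257 and 264 CPM in 2D. Clone 1 was the lower line in both formats, by more on plastic (difference 0.62 ± 0.07, adjusted p = 2.8e-06). Btg2, an antiproliferative gene and a p53 target, differed by 1.44 ± 0.28 (adjusted p = 0.0013). The difference for Egr1 was 1.55 ± 0.40, with an adjusted p of up to 0.117 with 1 library left out.

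In the list of PEA3 factors and feedback genes of ERK, 15 of 19 members rose in clone 1, beside 39.8% of all genes. In the difference 4 were higher and 2, Etv1 and Spry1, were lower, beside 3.57% and 3.44% over all genes; 1 was lower without clone 1 3D replicate 2, control 3D replicate 2 or control 2D replicate 1. Dusp5 (chr19:53529109-53542431; 22.1% of its exon length overlaps another gene), a nuclear phosphatase of ERK, stood at 304 and 313 CPM in clone 1 in 3D and 46.6 and 56.6 CPM in 2D, against 133 and 146 CPM in control in 3D and 51.2 and 61.3 CPM in 2D. The plastic libraries overlapped and the clone 1 gel libraries were higher (difference 1.28 ± 0.11, adjusted p = 8.3e-09). Dusp1, a phosphatase of several MAP kinases, stood at 466 and 497 CPM in clone 1 in 3D and 10.9 and 11.8 CPM in 2D, against 138 and 139 CPM in control in 3D and 5.52 and 5.67 CPM in 2D (difference 0.78 ± 0.14, adjusted p = 0.00088). Errfi1, an inhibitor of the EGF receptor, was lower in clone 1 in both formats and rose more there (difference 0.72 ± 0.08, adjusted p = 3.5e-07). Among 12 EGF family ligands and receptors, Areg, or amphiregulin, rose by 3.03 ± 0.07 in clone 1 and by 2.55 ± 0.07 in control (difference 0.48 ± 0.10, adjusted p = 0.0036), while the receptor gene Erbb3 rose less in clone 1 (-0.60 ± 0.12, adjusted p = 0.0019).

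Targets of NF-kB and chemokine genes, listed together with genes of NF-kB subunits, rose in 24 of 32 members and fell in 5 in clone 1, beside 22 and 7 in control. The median log2 change was 1.28 in clone 1, 1.19 in clone 2 and 0.728 in control. Over all genes 39.8% rose and 35.3% fell in clone 1. In the difference from control 10 were higher and 1 was lower, beside 3.57% and 3.44% over all genes. Cxcl1 (chr5:90891241-90893115), a chemokine for neutrophils, stood at 213 and 228 CPM in clone 1 in 3D and 32.4 and 30.7 CPM in 2D, against 98.2 and 102 CPM in control in 3D and 45.8 and 45 CPM in 2D (difference 1.66 ± 0.09, adjusted p = 1.3e-12). Clone 1 was the higher line in the gel and the lower one on plastic. Ptgs2 (chr1:150100031-150108227), or COX-2, showed the same order, with 1417 and 1462 CPM in clone 1 in 3D and 360 and 339 CPM in 2D, against 811 and 777 CPM in control in 3D and 473 and 507 CPM in 2D (difference 1.35 ± 0.08, adjusted p = 3e-12). Against clone 2, with the clone 1 libraries shared, the difference was 1.03 ± 0.09 for Cxcl1 (adjusted p = 3e-09) and 2.21 ± 0.08 for Ptgs2 (adjusted p = 1.2e-16), and other members of the list differed from clone 2 in the other direction. The lower member was Vcam1, an adhesion molecule for leukocytes, at 7.59 and 7.38 CPM in clone 1 in 3D and 45.9 and 38.2 CPM in 2D, against 22.4 and 23.5 CPM in control in 3D and 57.6 and 59.8 CPM in 2D (difference -1.14 ± 0.14, adjusted p = 3.4e-06). It was chosen after its values were seen and was not recomputed under the alternatives.

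Matrix metalloproteinase genes held the widest gaps between the responses among the genes chosen by the rule that had more than 3 counts in every group. Of 24 metalloproteinase and inhibitor genes, 12 rose and 9 fell in clone 1, beside 12 and 7 in control, and these shares lie near the 39.8% up and 35.3% down over all genes in clone 1. In the difference 6 were higher and 3 lower, beside 3.57% and 3.44% over all genes. Mmp3 (chr9:7445822-7455975), or stromelysin 1, stood at 185 and 199 CPM in clone 1 in 3D and 11 and 12.5 CPM in 2D, against 58.7 and 63 CPM in control in 3D and 39.3 and 40.5 CPM in 2D. Clone 1 held both the highest and the lowest libraries of the 2 lines. The log2 change was 4.03 ± 0.09 in clone 1 (adjusted p = 5.9e-23) and 0.61 ± 0.08 in control, a difference of 3.42 ± 0.13 (adjusted p = 4.1e-16). Mmp10 (chr9:7502352-7510240), or stromelysin 2, its neighbour on chromosome 9, stood at 20.8 and 22.4 CPM in clone 1 in 3D and 1.12 and 1.12 CPM in 2D, against 13.1 and 13.3 CPM in control in 3D and 9.23 and 6.75 CPM in 2D. The order was the same (difference 3.54 ± 0.29, adjusted p = 4e-09). Against clone 2 the difference was 1.61 ± 0.17 for Mmp3 (adjusted p = 8e-08) and 2.91 ± 0.34 for Mmp10 (adjusted p = 4e-07).

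The promoters of both genes are shown because each holds the AP-1 site for which stromelysin promoters are known, spelled TGANTCA, searched on both strands and marked by capitals. They are RefSeq sequences on GRCm38.p6, on the plus strand, at chr9:7445572-7445871 for Mmp3 and chr9:7502092-7502391 for Mmp10.
Mmp3: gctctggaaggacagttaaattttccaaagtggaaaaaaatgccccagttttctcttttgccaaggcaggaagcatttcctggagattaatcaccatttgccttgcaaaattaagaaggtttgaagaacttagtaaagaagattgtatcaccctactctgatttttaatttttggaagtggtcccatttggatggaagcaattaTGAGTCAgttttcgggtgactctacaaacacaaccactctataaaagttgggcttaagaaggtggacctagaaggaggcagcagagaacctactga
Mmp10: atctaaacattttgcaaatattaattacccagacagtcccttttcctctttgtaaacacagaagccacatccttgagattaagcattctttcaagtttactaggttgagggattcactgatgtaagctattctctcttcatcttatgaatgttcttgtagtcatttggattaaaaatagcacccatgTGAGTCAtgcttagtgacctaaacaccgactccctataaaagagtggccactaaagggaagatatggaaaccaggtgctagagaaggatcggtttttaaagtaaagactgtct
These letters stood in 7.81% of all 32851 promoters and in 5.51% of those of genes tested. Of the metalloproteinase genes higher in the difference, 4 had an entry and 2 held the letters. Promoters of the lower ones were not searched as a set.

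Mmp15, a membrane-bound metalloproteinase, was among the genes added in clone 1, with 10.7 and 10.8 CPM in clone 1 in 3D and 3.7 and 3.94 CPM in 2D, against 4.38 and 5.3 CPM in control in 3D and 6.85 and 4.38 CPM in 2D (difference 1.70 ± 0.29, adjusted p = 0.00031). Its clone 1 gel libraries were above all others of the 2 lines. The difference for Mmp13, whose counts are given above, had an adjusted p of 0.1. Of 9 genes of plasminogen activation, 4 rose and 2 fell in clone 1, beside 39.8% and 35.3% over all genes. In the difference 3 were called, each higher in clone 1, beside 3.57% higher over all genes. Plau (chr14:20836660-20843385), the urokinase activator of plasminogen, stood at 421 and 441 CPM in clone 1 in 3D and 134 and 156 CPM in 2D, against 315 and 320 CPM in control in 3D and 194 and 193 CPM in 2D. Clone 1 was higher in the gel and lower on plastic (difference 0.86 ± 0.09, adjusted p = 1.5e-07). Serpinb5, or maspin, of the serpin family, stood at 7.82 and 7.54 CPM in clone 1 in 3D and 3.77 and 2.57 CPM in 2D, against 23.1 and 22.5 CPM in control in 3D and 21 and 20.8 CPM in 2D (difference 1.13 ± 0.21, adjusted p = 0.0011). Every clone 1 library was below every control library for it.

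**Figure D4:**
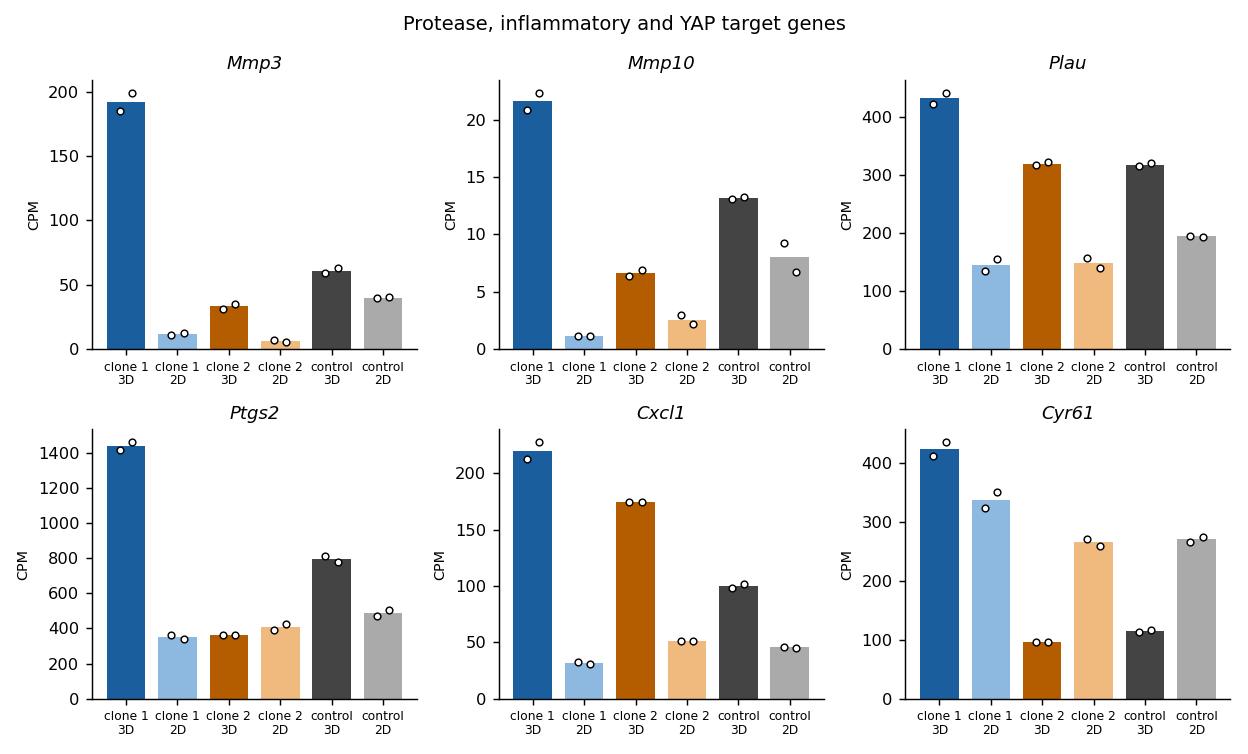
Levels of Mmp3, Mmp10, Plau, Ptgs2, Cxcl1 and Cyr61 in CPM in each group. Bars are means of 2 libraries and points are the libraries. Each of these genes was highest in clone 1 in the gel, with Mmp3 at 185 and 199 CPM there against 58.7 and 63 CPM in control in the gel.

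Among targets and partners of YAP, a regulator that responds to stiffness, 9 of 22 rose and 11 fell in clone 1, beside 39.8% and 35.3% over all genes, and 2 were higher and 5 lower in the difference, beside 3.57% and 3.44%. Both of the higher members encode matricellular proteins. Cyr61 stood at 413 and 435 CPM in clone 1 in 3D and 323 and 351 CPM in 2D, against 113 and 117 CPM in control in 3D and 266 and 275 CPM in 2D. It rose in clone 1 and fell in control (difference 1.57 ± 0.08, adjusted p = 1.4e-13). Ctgf fell in both lines and less in clone 1, with 32 and 35 CPM in clone 1 in 3D and 82.1 and 83.7 CPM in 2D, against 15 and 14.7 CPM in control in 3D and 68 and 80.3 CPM in 2D (difference 1.02 ± 0.12, adjusted p = 2.8e-06). Ankrd1, another known target, had a difference of -0.41 ± 0.08 (adjusted p = 0.0019), and lower too were the partner factor Tead1 (-0.49 ± 0.09, adjusted p = 0.00089) and Asap1 (-0.37 ± 0.08, adjusted p = 0.0024). Of 26 actin and SRF target genes 11 rose and 12 fell in clone 1, shares not far from those over all genes, and 6 were called in the difference, each lower in clone 1, beside 3.44% lower over all genes. Tpm1, a tropomyosin, fell by a log2 change of -2.04 ± 0.05 in clone 1 and -1.64 ± 0.05 in control (difference -0.39 ± 0.07, adjusted p = 0.00055). Cnn2, a calponin, fell in clone 1 by -0.61 ± 0.06 and stood at 0.01 ± 0.06 in control (difference -0.62 ± 0.09, adjusted p = 4e-05), and Zyx, or zyxin of focal adhesions, rose less in clone 1 (-0.53 ± 0.09, adjusted p = 0.00027).

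Matrix genes of clone 1 moved unevenly. Of 17 matricellular and glycoprotein matrix genes, 5 rose and 8 fell in clone 1, beside 39.8% and 35.3% over all genes, and 1 was higher and 6 lower in the difference, beside 3.57% and 3.44%. Fn1 (chr1:71585520-71653200), fibronectin, stood at 821 and 865 CPM in clone 1 in 3D and 717 and 681 CPM in 2D, against 1378 and 1276 CPM in control in 3D and 488 and 535 CPM in 2D. Clone 1 was lower in the gel and higher on plastic (log2 change 0.27 ± 0.06 in clone 1 and 1.38 ± 0.06 in control, difference -1.11 ± 0.08, adjusted p = 1.8e-10). Thbs1 (chr2:118111876-118127133), thrombospondin 1, fell in both lines, with 311 and 347 CPM in clone 1 in 3D and 1152 and 1022 CPM in 2D, against 694 and 663 CPM in control in 3D and 1255 and 1231 CPM in 2D (difference -0.85 ± 0.08, adjusted p = 8.2e-08). Of 10 laminin and basement membrane genes, 8 rose in clone 1. In the difference 2 were higher and 4 lower, with 1 lower without clone 1 3D replicate 1 and 2 lower without clone 1 3D replicate 2 or either control 3D replicate. The higher ones were Lama3 and Lamb3, which encode a laminin alpha and a laminin beta chain. Lamb3 (chr1:193207699-193343878) stood at 644 and 684 CPM in clone 1 in 3D and 199 and 201 CPM in 2D, against 415 and 424 CPM in control in 3D and 216 and 225 CPM in 2D (difference 0.80 ± 0.07, adjusted p = 4e-08). Lama3 differed by 0.61 ± 0.08 (adjusted p = 1e-05). In both, clone 1 was the highest group in the gel.

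Of 18 collagen chain genes, 6 rose and 7 fell in clone 1, shares near the 39.8% and 35.3% over all genes. In the difference 3 were called, each lower in clone 1, beside 3.44% lower over all genes. The count was 5 with no low-count filter or without control 2D replicate 1. Lower members included Col16a1 (-0.53 ± 0.11, adjusted p = 0.0022) and Col4a5 (-0.93 ± 0.19, adjusted p = 0.002). Of 22 genes of collagen processing, 7 rose and 12 fell in clone 1, beside 10 and 9 in control. In the difference 1 was higher and 3 were lower, or 0 higher and 6 lower with total counts only. P4ha1, which is also on the hypoxia list, and Plod2, a lysyl hydroxylase, both fell in clone 1 and rose in control. Plod2 stood at 45.3 and 45.6 CPM in clone 1 in 3D and 59.5 and 58.1 CPM in 2D, against 91.2 and 90.3 CPM in control in 3D and 78 and 76.8 CPM in 2D (difference -0.60 ± 0.10, adjusted p = 0.00015). Of 19 integrin and collagen receptor genes, 13 rose and 4 fell in clone 1. In the difference 2 were higher and 3 lower, beside 3.57% and 3.44% over all genes. With total counts only 1 was higher, and without clone 1 3D replicate 1 0 were lower. Itga2, the alpha chain of a collagen receptor, stood at 337 and 346 CPM in clone 1 in 3D and 127 and 120 CPM in 2D, against 292 and 275 CPM in control in 3D and 141 and 168 CPM in 2D (difference 0.59 ± 0.09, adjusted p = 0.00012). Sdc1, the matrix proteoglycan receptor syndecan 1, rose in clone 1 and fell in control (0.66 ± 0.07, adjusted p = 4.8e-07), and Has2, a hyaluronan synthase, rose more in clone 1 (0.38 ± 0.08, adjusted p = 0.0024).

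Of 11 keratin and intermediate filament genes, 4 rose and 5 fell in clone 1 while 4 rose and 7 fell in control. Over all genes 39.8% rose and 35.3% fell in clone 1, and 41.7% rose and 35.6% fell in control. Krt14 (chr11:100203162-100207548), a basal keratin, stood at 16 and 14.3 CPM in clone 1 in 3D and 9.99 and 12.4 CPM in 2D, against 34.8 and 36.4 CPM in control in 3D and 78.6 and 77.6 CPM in 2D. It rose in clone 1 and fell in control, and every clone 1 library was below every control library (difference 1.58 ± 0.14, adjusted p = 2.1e-08). Vim, or vimentin, rose less in clone 1 (-0.33 ± 0.07, adjusted p = 0.0024). Of 18 cadherin and desmosome genes, 12 rose and 4 fell in clone 1, the same counts as in control. In the difference 1 was higher and 2 were lower, beside 3.57% and 3.44% over all genes. The higher count was 0 with total counts only and 3 without Gm26917 and Gm42418. Cdh1, or E-cadherin, rose less in clone 1 (-0.40 ± 0.09, adjusted p = 0.0048), and so did Ppl, or periplakin (-0.96 ± 0.12, adjusted p = 5.9e-06). Of 16 regulators of the epithelial to mesenchymal transition, 10 rose in both lines. Of 24 genes of the TGF-beta and BMP response, 18 rose and 5 fell in clone 1. In the difference 2 were higher and 5 lower, beside 3.57% and 3.44% over all genes. The higher count was 1 without clone 1 2D replicate 1, clone 1 3D replicate 2 or control 3D replicate 2, and the lower count was 3 by DESeq2's Wald test and without clone 1 2D replicate 2 or any 1 of the 3D libraries of clone 1 and control. Id2, an inhibitor of helix-loop-helix factors, stood at 100 and 96.6 CPM in clone 1 in 3D and 51 and 48.4 CPM in 2D, against 56.1 and 57.2 CPM in control in 3D and 15.3 and 11.9 CPM in 2D. Clone 1 was higher in both formats and by more on plastic (difference -1.08 ± 0.13, adjusted p = 2.3e-06). The inhibitory Smad gene Smad7 rose more in clone 1 (0.45 ± 0.09, adjusted p = 0.0015), and Dll1, a Notch ligand, did as well (0.62 ± 0.12, adjusted p = 0.00087).

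Growth-linked gene groups fell with the gel in clone 1, where 39.8% of all genes rose and 35.3% fell. Of 34 DNA replication genes 3 rose and 29 fell, and of 32 mitosis genes 3 rose and 27 fell, with median log2 changes of -0.566 and -0.565; control counts were 2 and 30 for replication and 2 and 28 for mitosis. Cdk1, the kinase that drives entry into mitosis, changed by -1.36 ± 0.05 in clone 1 and -1.38 ± 0.05 in control. In the difference 7 replication genes were higher, beside 3.57% of all genes. The count was 13 without Gm26917 and Gm42418, 4 with total counts only or without clone 1 2D replicate 2, clone 2 3D replicate 2 or control 3D replicate 2, 2 without clone 1 3D replicate 1 and 1 without control 3D replicate 1. Tk1, a thymidine kinase, was one of them (0.46 ± 0.07, adjusted p = 0.00016). Of 77 cytosolic ribosomal protein genes 3 rose and 74 fell in clone 1, with a median of -1.34 beside -1.19 in control and -1.46 in clone 2. In the difference 24 were called, each lower in clone 1, beside 3.44% lower over all genes. The count was 39 with total counts only, 15 without control 3D replicate 1, 12 without clone 1 2D replicate 1, 7 without control 3D replicate 2 and 4 without clone 1 3D replicate 2, which held the largest share of Gm26917. Rps6 stood at 377 and 358 CPM in clone 1 in 3D and 683 and 638 CPM in 2D, against 480 and 491 CPM in control in 3D and 632 and 631 CPM in 2D (difference -0.47 ± 0.07, adjusted p = 8.2e-05). Of 63 clustered histone genes, whose near-identical copies can share reads, 58 fell in clone 1. Their median log2 change was -1.65 in clone 1, -1.46 in control and -1.92 in clone 2. In the difference 18 were lower, beside 3.44% over all genes, or 7 without clone 1 3D replicate 2 and 8 without control 3D replicate 2. Hist1h1d, a linker histone, differed by -0.52 ± 0.07 (adjusted p = 1.7e-05).

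Of 74 nuclear genes of oxidative phosphorylation 69 fell in clone 1, beside 35.3% of all genes, with a median of -1.18 beside -1.13 in control. The 12 genes of the mitochondrial genome went the other way, with 10 rising in clone 1, beside 39.8% of all genes. Their median was 3.58 beside 4.60 in control. In the difference 10 were not called, 1 was higher and 1 lower, beside 3.57% and 3.44% over all genes. With DESeq2's Wald test 0 were higher. The median difference was 0.0339, and its sign changed with the scaling of the libraries. Mitochondrial transcripts took 1.72 and 1.76% of the clone 1 counts in 3D and 0.449 and 0.515% in 2D. mt-Cytb, cytochrome b, rose less in clone 1 (-0.55 ± 0.11, adjusted p = 0.0013), with 2300 and 2468 CPM in clone 1 in 3D and 193 and 231 CPM in 2D, against 2698 and 2395 CPM in control in 3D and 140 and 168 CPM in 2D. In the gel the libraries of the lines overlapped, and on plastic clone 1 was higher. Of 32 interferon response genes, 13 rose and 3 fell in clone 1, beside 19 and 5 in control. Over all genes 39.8% rose and 35.3% fell in clone 1. In the difference 4 were lower, beside 3.44% over all genes. The count was 1 to 2 without any 1 of the libraries of clone 1 and control other than control 2D replicate 2. Of 19 genes of MHC class I presentation, 4 rose and 8 fell in clone 1 beside 9 and 6 in control. In the difference 19 of 19 were not called, with a median of -0.122, and 1 was lower with total counts only. The clone 1 median of 0.0821 changed sign with the scaling of the libraries. Of 24 cholesterol synthesis genes, 7 rose and 14 fell in clone 1; Dhcr7, the last enzyme of the pathway, rose less than in control (-0.62 ± 0.12, adjusted p = 0.0012), and Insig1, which holds back the sterol-sensing factors, fell in clone 1 and rose in control (-0.39 ± 0.08, adjusted p = 0.0013). Of 30 lysosome genes, 19 rose and 7 fell in clone 1, and Glb1, a beta-galactosidase, stood at -0.01 ± 0.08 in clone 1 and 0.60 ± 0.08 in control (difference -0.61 ± 0.12, adjusted p = 0.0011).

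**Figure D5:**
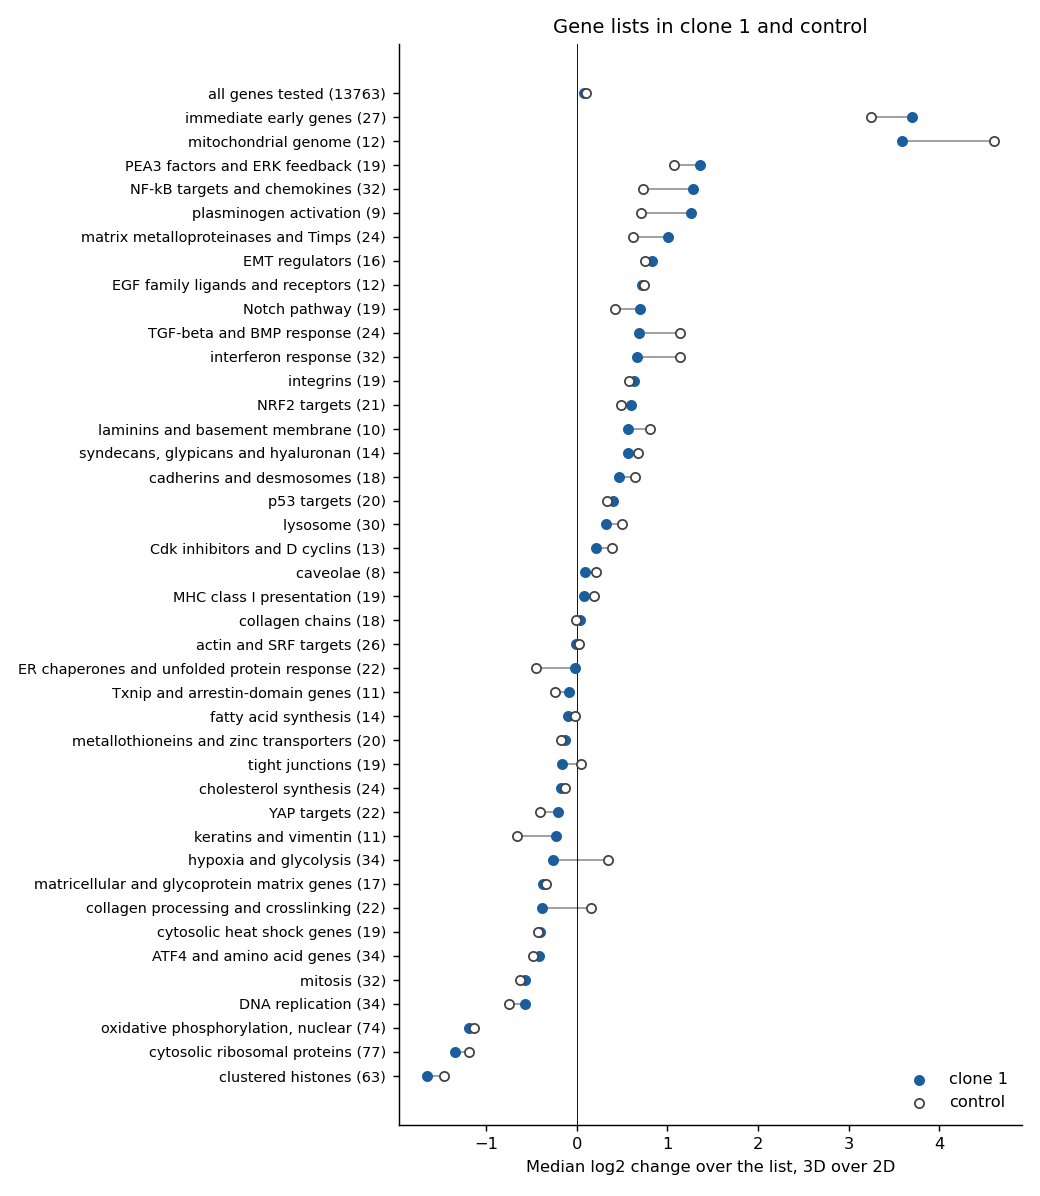
Median log2 change of 3D over 2D for each gene list in clone 1 (filled) and control (open), with the number of genes tested in brackets. Hypoxia and glycolysis, at -0.257 in clone 1 and 0.343 in control, and collagen processing, at -0.387 in clone 1 and 0.155 in control, are among the lists that lie on opposite sides of 0. With only genes without overlap the hypoxia and glycolysis median of clone 1 was 0.036.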

How the data were processed

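Polyadenylated RNA of 12 libraries was sequenced with a stranded kit, per the labels' protocols. The deposited values are raw counts per gene symbol, 1 table per format with 31017 genes each. The submitters' processing notes name mm10 and, among tools, R 4.1.1, STAR 2.7.9a, FastQC 0.11.9, Cell Ranger 3.0.0 and featureCounts; the strand setting of counting is not given in the sources used here, so genes that overlap on either strand are uncertain. Counts were joined by symbol and fitted with edgeR 4.0.16 (R 4.3.3, limma 3.58.1): filterByExpr, TMM scaling, 1 mean per group, quasi-likelihood test, Benjamini-Hochberg adjustment over 13763 genes, threshold 0.05. CPM are scaled by TMM, except marker sums, which are CPM of all counts. Each SE is the size of the change over the square root of the test's F. Such an SE is too small for a very large change from a few counts. For that reason the rises of Egr1, Fos and Fosb in clone 1 are given without one. Residual degrees of freedom numbered 6, and the common biological coefficient of variation was 4.52%. The fit was also run on simulated counts that lack the wide shift between formats seen here. That run does not check the calls made in these data. DESeq2 1.42.0, other scalings, filters and left-out libraries were alternatives. Replicates of a group differed by more than sampling noise, so none was counted as a duplicate. GENCODE M21 placed 98.91% of the genes tested.

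Named genes were those with the largest called changes or differences of at least 5 CPM with non-overlapping groups, an official symbol and under 20% of shared exon length, a few members per list by p, and Etv4, Etv1 and Etv5; not all are described, and some results are not reported here. Clone 1 libraries, lists and rules were chosen with earlier results of these data known. A fold against a group at 0 uses a floor of 3 counts over the group.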

Additional observations from a re-analysis of the deposited data

Results flagged for a closer look

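The response to the gel differed between clone 1 and control in 966 genes by the test of the difference itself, edgeR's quasi-likelihood interaction, and genes with wide gaps are given with their values. These values compare log2 changes with the gel and not levels: Adgrg3 and C3, for example, stood below control in both formats. The response was higher in clone 1 for Mmp10 by 3.54 on the log2 scale, Mmp3 by 3.42, Adgrg3 by 2.94, C3 by 2.81, Slco4a1 by 2.70, Neurl3 by 2.44 and Siglec15 by 2.36. The response was lower in clone 1 for Txnip at -2.81, Calcoco1 at -1.73, Cplx2 at -1.72, Pdcd4 at -1.43, Dlc1 at -1.43, Pdk1 at -1.38, Cnnm2 at -1.35 and Numbl at -1.34. For 4 further genes a group held 3 counts or fewer, so the adjusted p is given in place of a fold. The responses of Bicdl2 (0.000449), Bspry (0.0101) and Tmem266 (0.0459) were higher in clone 1 and that of Scara5 (0.00494) was lower.

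The calls of 6 of these genes were lost in at least 1 alternative. Leaving out clone 1 2D replicate 1 raised the adjusted p of Bspry to 0.0623 and that of Scara5 to 0.0600. Cplx2 (highest adjusted p 0.293), Dlc1 (0.147), Numbl (0.0932) and Tmem266 (0.295) each lost the call without any 1 of several libraries, clone 1 2D replicate 1 and clone 1 3D replicate 2 among them. The others were called under every alternative run.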

How the results depend on the processing

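With 1 library left out the genes called in the culture response of clone 1 numbered 9409 to 10886 (5024 to 5885 higher, 4385 to 5001 lower; at least 2-fold 3065 to 3575 and 1636 to 1770), and in control 9677 to 11075 (5309 to 6102 and 4368 to 4973). The difference between the responses numbered 434 to 1259 (209 to 647 higher, 196 to 612 lower; at least 2-fold 61 to 127 and 48 to 105), and clone 1 against clone 2 gave 2951 to 4554 (1828 to 2859 and 1072 to 1697). Added genes numbered 11 to 51, lacking 17 to 45, opposite 46 to 90, larger 142 to 370 and smaller 147 to 413. With total counts only, clone 1 against clone 2 gave 1216 higher and 2590 lower. A stricter filter left 1837 genes at least 2-fold higher in clone 1, 12 added and 21 lacking, and no filter gave 49 added. Genes without overlap, fewer in number, gave 6141 called in clone 1 (3285 higher, 2856 lower; 1900 and 932 at least 2-fold), 6339 in control (3440 and 2899), 2613 against clone 2 (1666 and 947), 49 at least 2-fold lower in the difference and 229 smaller. DESeq2's Wald test called 901 genes in the difference. The sign of the Anxa8 change in clone 1, main value -0.04, turned to 0.40 without clone 1 2D replicate 1 and was -0.36 without clone 1 2D replicate 2. Of 274 genes, 262 kept their call and sign in the clone 1 response under every alternative and 202 in the difference. No scaling shifted the median of all genes by more than 0.0871.

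Same-numbered libraries share only a number: their deviations correlated between -0.0449 and 0.0223. With the number as a replicate block, 841 genes were called in the difference, 432 higher and 409 lower.

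Clone 1 is 1 clone with 2 libraries per format, and the collagen concentration of each library is not given. Clone 1 libraries in 2D held fewer counts than those in 3D, so genes low on plastic have the wider errors.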
